A study of Mus musculus with 48 samples.

Results

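Ngfr, the gene of the pan-neurotrophin receptor p75, was followed here with 5 other genes of neurotrophin signalling, Ntrk2, Ntrk3, Bdnf, Ntf3 and Sort1, 6 of the 23284 genes in the count table. They were picked by name, after Ngfr had been seen to be far lower in the immunoprecipitate than in the supernatant, so the difference between these fractions is described below without a test. All 6 were found in the table. Of these, 5 passed the filter on low counts in the immunoprecipitate and 6 in the supernatant, Ntf3 being the member that failed in the immunoprecipitate.

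Neurotrophins are secreted growth factors that act through Trk receptor tyrosine kinases, each with its preferred ligand, and through p75, which binds all of them and, together with sortilin, their uncleaved precursors. In the adult forebrain p75 is known above all from cholinergic neurons of the basal forebrain, which lie next to the preoptic area. TrkB and TrkC are widely expressed in neurons, and a form of TrkB without the kinase is abundant in astrocytes.

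RNA came from punches of the preoptic area of the mouse hypothalamus. Males with Cre in gonadotropin-releasing hormone (GnRH) neurons had been bred to females with a floxed stop before the GFP-tagged ribosomal protein L10a, so that all 8 main groups shared the genotype GnRH CRE x Floxed L10a-GFP. In each, RNA on tagged ribosomes was immunoprecipitated (IP) and the supernatant, depleted of GnRH neuron RNA, was sequenced too. Offspring were adult (diestrous) or young and had been exposed before birth to DHT, an androgen that is not converted to estrogen, or to vehicle. There were 6 libraries in each group of adult DHT, young DHT and young vehicle mice and 5 in each of adult vehicle mice, in both fractions. A further young IP and its supernatant came from mice labelled Floxed L10a-GFP and NoGFP, which carried the tag without Cre. The design text names females, while a protocol entry also mentions both sexes, and the labels do not say whether animals were pooled. The tag marks the cells in which Cre was active, by its driver GnRH neurons, and RNA of other cells that is carried along in the IP is not labelled as such.

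Depth was similar across fractions, at 28672561 to 47054031 counts in 23 IP libraries and 28136004 to 55479453 in 23 supernatant libraries. The pair without Cre had 32470787 counts in the IP and 37245392 in the supernatant. The defining transcript of the captured neurons, Gnrh1, lay between 664 and 16067 CPM (counts relative to the library total, on a fixed scale) in the IP against between 19.9 and 50.4 CPM in the supernatant. Without Cre it stood at 61.6 CPM in the IP against 38.2 CPM in the supernatant. In the supernatant all 6 listed markers of basal forebrain cholinergic neurons were present, from 15.3 CPM for the homeobox gene Gbx1 to 220.0 CPM for the acetylcholinesterase gene Ache.

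The promoters of Ngfr, the member with the large fraction difference, and of Ntrk2, a member called for age in the supernatant, are shown from RefSeq (GRCm38.p6), each from 250 bases before to 50 bases after the gene's start. The table held 4 of the 6 members, with 7 starts for Bdnf and 2 for Ntf3. Capitals mark GGGCGG, the core of the GC box bound by Sp1, on either strand, which appears as GGGCGG or CCGCCC.
Ngfr, chr11:95587649-95587948, minus strand: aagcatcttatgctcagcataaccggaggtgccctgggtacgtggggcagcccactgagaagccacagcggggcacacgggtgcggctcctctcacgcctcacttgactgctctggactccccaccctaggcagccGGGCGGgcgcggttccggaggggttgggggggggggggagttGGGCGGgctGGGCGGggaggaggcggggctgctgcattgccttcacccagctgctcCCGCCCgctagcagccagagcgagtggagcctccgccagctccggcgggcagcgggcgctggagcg
Ntrk2, chr13:58806319-58806618, plus strand: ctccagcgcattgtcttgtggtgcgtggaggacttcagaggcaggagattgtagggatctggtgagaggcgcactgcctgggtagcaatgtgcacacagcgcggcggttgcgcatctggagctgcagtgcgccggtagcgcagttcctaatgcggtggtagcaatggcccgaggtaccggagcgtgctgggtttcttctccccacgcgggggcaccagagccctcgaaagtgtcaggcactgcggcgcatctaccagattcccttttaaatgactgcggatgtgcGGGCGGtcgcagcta
The Ngfr window held 4 copies and the Ntrk2 window 1 copy, while 35.66% of 32851 promoters of the same length held at least 1. The Ngfr window was 71.7% G and C, above 92.6% of these promoters, and that of Ntrk2 61.3%. These matches are letters in a window, and no factor binding was measured.

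Ngfr was the member whose levels set the fractions apart. Its gene lies on the minus strand of chromosome 11 from 95568818 to 95587735 (mm10). In the IP it was at a median of 1.11 CPM (0.659 to 4.51) in adult DHT, 1.38 CPM (0.749 to 3.65) in young DHT and 1.20 CPM (0.472 to 1.61) in young vehicle mice (n = 6 each). The 5 adult vehicle IP libraries had 1.05, 6.76, 0.829, 1.28 and 0.655 CPM. Group medians were thus near 1 CPM, with some libraries higher, such as 2.92 and 4.51 CPM in adult DHT mice. Replicate 2 of the adult vehicle group was the furthest out.

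In the supernatant Ngfr was at a median of 19.9 CPM in adult DHT (15.8 to 27.4), 19.95 CPM in young DHT (12.9 to 25.1) and 17.9 CPM in young vehicle mice (13.7 to 26.6; n = 6 each). The 5 adult vehicle supernatants had 21.4, 15.3, 12.9, 16.5 and 17.8 CPM. No IP library reached the lowest supernatant library. The means were 1.66 ± 1.497 CPM in the IP against 18.9 ± 4.35 CPM in the supernatant (SD, n = 23 each), an 11.4-fold lower level in the IP. Fitted over the 4 conditions, the log2 fold change of IP over supernatant was -3.47 ± 0.25 (SE). The fold was 11.2 in adult DHT, 7.94 in adult vehicle, 11.5 in young DHT and 16.8 in young vehicle mice. In bulk RNA of this kind, fewer cells that express a gene and less of its RNA per cell cannot be told apart. Nor can either be told from a difference in how much of its RNA the IP carries along.

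**Figure D1:**
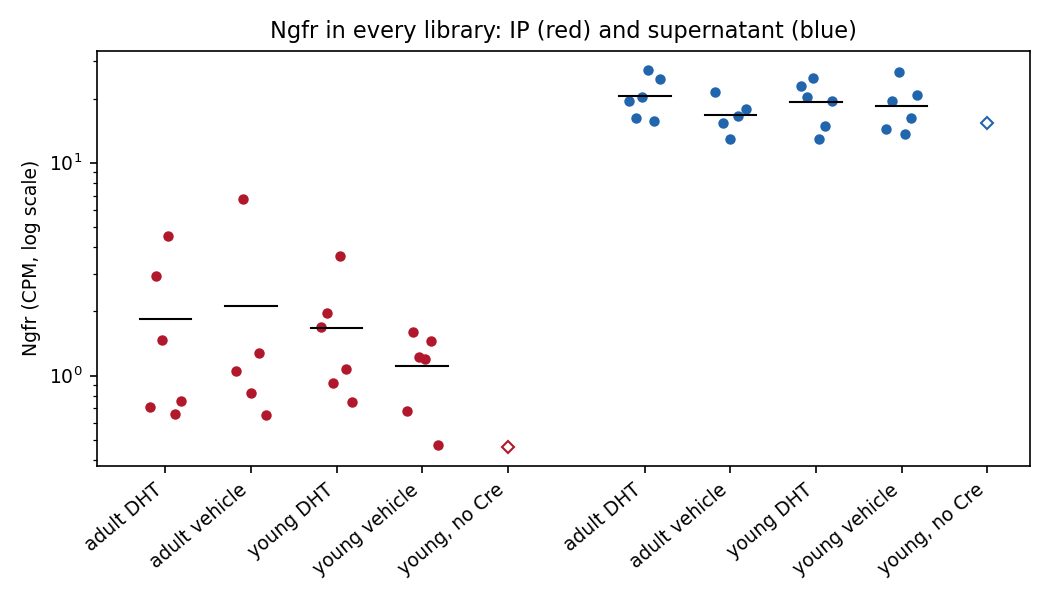
Ngfr in every library, in CPM on a log axis, by fraction (IP left, supernatant right) and group. Dots are libraries, bars group means and open diamonds the libraries without Cre. All 23 IP libraries, at 0.472 to 6.76 CPM, lie below all 23 supernatants, at 12.9 to 27.4 CPM, and the IP without Cre lies as low as the lowest IP with Cre.

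The same gap stood in the mice without Cre. Ngfr had 15 reads in their IP, 0.462 CPM with an exact Poisson interval of 0.259 to 0.762, and 574 reads in their supernatant, 15.4 CPM (14.2 to 16.7). That is a 33.4-fold lower level in the IP, a log2 ratio of -5.06 with an exact interval of -5.91 to -4.33 for counting error only. The Ngfr difference was therefore at least as large in the pair where no tagged ribosomes were captured as in any of the 4 conditions with Cre, although it rests on 1 library per fraction and has no replicate check.

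Among the 16660 genes tested between the fractions, 46.1% were called by edgeR in either direction, 21.7% as lower and 24.4% as higher in the IP, so a difference between fractions was common and is no mark of the members. Ordered by fold change, Ngfr was 117th from the most depleted. Most genes above it were scarce. Among 11264 genes with a supernatant mean of at least 5 CPM it was the 3rd most depleted, and the 4th in the pair without Cre.

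Base composition moved with the fraction over the whole table. The Ngfr transcript is 58.6% G and C, in the top decile of the 14165 tested genes with a value (85.0%). Genes of that decile had a median log2 fold change of -0.25 for IP over supernatant and -0.21 without Cre, against 0.12 and 0.15 in the lowest decile. In the top decile 14.7% of genes were at least 2-fold lower in the IP, and 6.70% in the lowest. Ngfr, at -3.47, lay far below the median of its decile.

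Genes with the pattern closest to Ngfr over the 8 group means were found by the root mean square difference of centred log2(CPM + 0.5) values among 14934 genes. They were Eef1a2, a translation elongation factor gene of neurons and muscle (0.20), the microtubule linker gene Clip2 (0.42), the gene of the collapsin response mediator Dpysl2 (0.42), the hypothalamic homeobox gene Otp (0.44) and the vesicle protein gene Vat1 (0.47). Eef1a2 averaged 27.6 ± 8.18 CPM in the IP against 203 ± 15.04 CPM in the supernatant. Otp averaged 0.375 ± 0.354 CPM in the IP against 4.203 ± 2.13 CPM in the supernatant (SD, n = 23 each). Without Cre, Eef1a2 was at 16.1 CPM in the IP against 193 CPM in the supernatant, and Dpysl2 at 96.5 CPM in the IP against 561 CPM in the supernatant, so these neighbours too were low in an IP without tagged ribosomes.

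The cholinergic markers were set beside Ngfr because p75 marks these neurons. Of 6, 3 were called lower and 0 higher in the IP, against 21.7% and 24.4% of all genes. Their median log2 fold change was -0.27 against 0.00 over all genes. Their differences were far smaller than that of Ngfr. Gbx1 was at -0.85, the vesicular acetylcholine transporter gene Slc18a3 at -0.84, the septal and striatal homeobox gene Lhx8 at -0.28, the choline transporter gene Slc5a7 at -0.26, Chat, the gene of choline acetyltransferase, at -0.25 and Ache at -0.03. Chat averaged 51.3 ± 26.0 CPM in the IP against 60.5 ± 16.5 CPM in the supernatant, and Slc5a7 19.2 ± 9.42 CPM in the IP against 23.7 ± 7.31 CPM in the supernatant. In the IP Ngfr was thus near 1 CPM while Chat and Slc5a7 were well above it.

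In the supernatant Ngfr moved with those markers from library to library. After centring each gene on its group means (log2 scale, n = 23), Ngfr and Slc5a7 correlated with Pearson's r = 0.932 and Spearman's coefficient = 0.938 (permutation p = 1e-05 for each, the smallest that 100000 permutations can give; adjusted p = 0.0001 over 20 relations). Without the 2 libraries farthest from the median Ngfr level, r was 0.921, and without the last 10 sample numbers, which are all young libraries, it was 0.912 (n = 18). Slc18a3 followed with 0.891 and 0.906 for the same measures (permutation p = 1e-05 and adjusted p = 0.0001 for both). Ache had 0.676 and 0.658, Chat 0.664 and 0.687, Lhx8 0.555 and 0.538, and Gbx1 0.522 and 0.527, with permutation adjusted p of 0.032 or less. These 6 values of r stayed between 0.558 and 0.921 without the 2 farthest libraries.

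No other member varied so closely with Ngfr in the supernatant. Sort1 had r = 0.413 and a Spearman coefficient of 0.383, Ntrk2 0.386 and 0.394, Ntrk3 0.313 and 0.208 and Bdnf -0.03 and 0.01, none past the threshold (permutation adjusted p of 0.124 or more). In the IP Chat had r = 0.707 and a Spearman coefficient of 0.731, Slc5a7 0.677 and 0.548, Ache 0.543 and 0.555, Bdnf 0.532 and 0.532 and Sort1 0.471 and 0.518, past the threshold over 20 relations (permutation adjusted p of 0.0471 or less). Without the 2 farthest libraries these 5 values of r lay between 0.422 and 0.536. Slc18a3 (r = 0.127), Lhx8 (-0.20), Gbx1 (-0.49), Ntrk2 (0.469) and Ntrk3 (0.515) did not pass in the IP (permutation adjusted p of 0.0845 or more). Whether the correlations differ between the fractions was not tested.

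**Figure D2:**
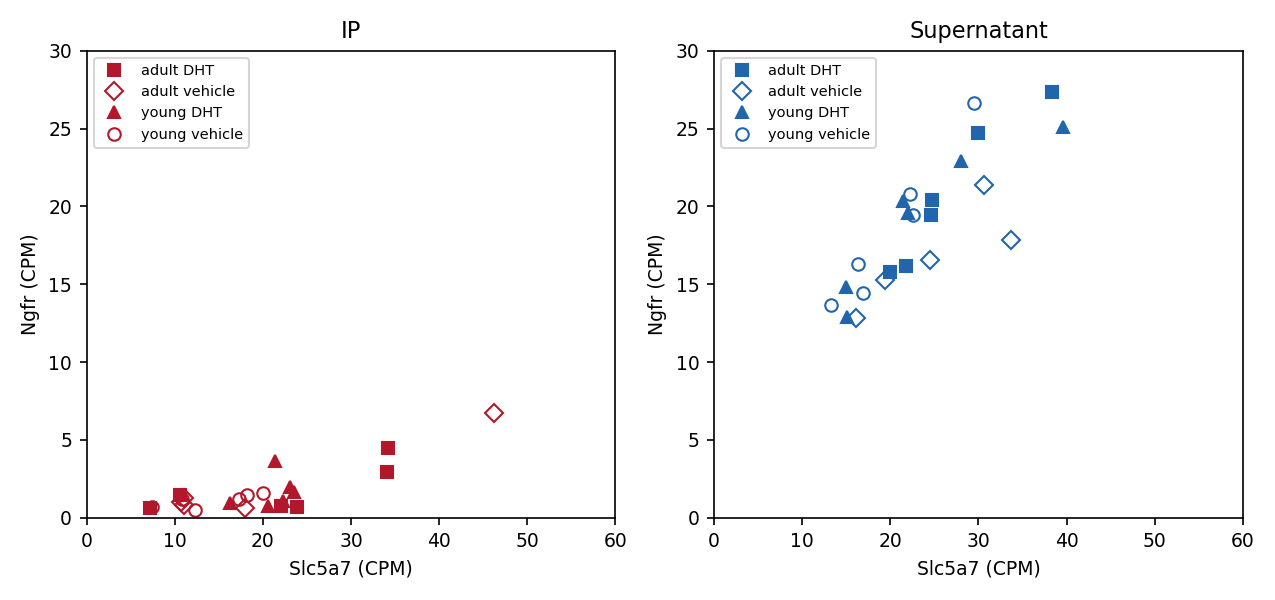
Ngfr against Slc5a7, the choline transporter gene, in CPM on linear axes, in the IP (left) and the supernatant (right). Each symbol is a library, shaped by group. In the supernatant Ngfr and Slc5a7 rise together from library to library (r = 0.932 on centred log2 values). In the IP Ngfr is at most 6.76 CPM over a range of 7.23 to 46.2 CPM of Slc5a7. The genes correlate there too (r = 0.677, and 0.45 without the 2 farthest libraries).

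The Trk receptor genes were lower in the IP by far less. Counts per gene do not separate the kinase forms of TrkB and TrkC from the shorter forms. Ntrk2 (chromosome 13, 58806569 to 59133970, plus strand) averaged 69.5 ± 22.8 CPM in the IP against 109 ± 21.3 CPM in the supernatant, with overlapping ranges of 41.1 to 138 and 65.7 to 148 CPM and a log2 fold change of -0.62 ± 0.09 (SE). Without Cre it was at 48.8 CPM (46.4 to 51.3) in the IP and 80.5 CPM (77.7 to 83.5) in the supernatant, a log2 ratio of -0.72 (-0.81 to -0.63). Ntrk3 (chromosome 7, 78175959 to 78738012, minus strand) averaged 22.9 ± 12.7 CPM in the IP against 31.0 ± 4.32 CPM in the supernatant, a log2 fold change of -0.40 ± 0.15. Without Cre its log2 ratio was -0.43 (-0.59 to -0.26). For both Trk genes the difference between fractions was similar with and without Cre. Of the 8 astrocyte markers 6 were called lower in the IP and 0 higher, against 21.7% and 24.4% of all genes. The 8 markers had a median log2 fold change of -0.54, and -0.60 without Cre. Their part in the Ntrk2 value was not tested.

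Bdnf and Sort1 overlapped between the fractions. Bdnf (chromosome 2, 109674700 to 109727007, plus strand) averaged 13.6 ± 4.96 CPM in the IP against 13.2 ± 2.04 CPM in the supernatant, with a log2 fold change of 0.07 ± 0.13. Without Cre it was higher in the IP, at 13.4 CPM (12.1 to 14.7) against 8.51 CPM (7.60 to 9.50) in the supernatant. Sort1, the gene of the sorting receptor sortilin (chromosome 3, 108284082 to 108361511, plus strand), averaged 39.9 ± 18.6 CPM in the IP against 40.1 ± 8.90 CPM in the supernatant, a log2 fold change of -0.03 ± 0.11. Its log2 ratio without Cre was -0.09 (-0.22 to 0.04).

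Ntf3, the gene of neurotrophin-3 (chromosome 6, 126101412 to 126166910, minus strand), was barely present. In the IP 18 of 23 libraries had 0 reads, including all 5 of adult vehicle mice, while single libraries had up to 93 reads (2.05 CPM). In the supernatant 1 of 23 libraries had 0 reads and the rest 1 to 27 reads, at most 0.775 CPM. Without Cre it had 0 reads in the IP, which at a limit of 3 counts allows up to 0.0924 CPM, and 2 reads in the supernatant. Reads were thus rare and clumped in the IP and few but present in all but 1 supernatant library, and no fold change is given.

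**Figure D3:**
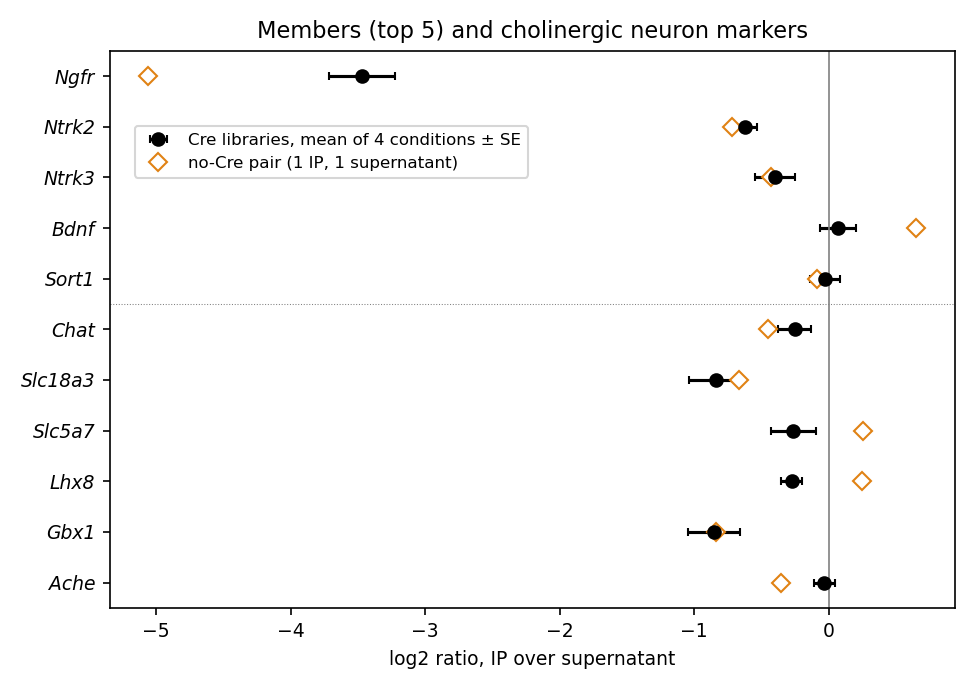
Log2 fold change of IP over supernatant for each member, Ntf3 left out, and for the cholinergic markers. Filled circles are the fit over 46 libraries with Cre with its SE, and open diamonds the ratio of the pair without Cre, which has no replicates. Ngfr stands at -3.47 with Cre and -5.06 without it, far from every other gene shown.

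Per length of exon the supernatant levels ran in another order than the raw values. Ntrk2 had 5.65, Ngfr 5.49 and Sort1 5.30 CPM per kilobase of exon, too close to be ordered given their spread, followed by Bdnf at 2.13, Ntrk3 at 1.03 and Ntf3 at 0.165. In the IP the per-length levels were 5.28 for Sort1, 3.60 for Ntrk2, 2.18 for Bdnf, 0.758 for Ntrk3, 0.483 for Ngfr and 0.145 for Ntf3. By this measure Ngfr stood beside Ntrk2 and Sort1 in the supernatant and near the bottom in the IP. The exon length joins all transcripts of a gene and lowers its value where only some are used. It was 30170 bases for Ntrk3 and 19292 for Ntrk2, whose longest protein-coding transcripts have 19703 and 8744 bases. For Ngfr each length was 3446 bases, so its place beside Ntrk2 depends on the length used.

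**Figure D4:**
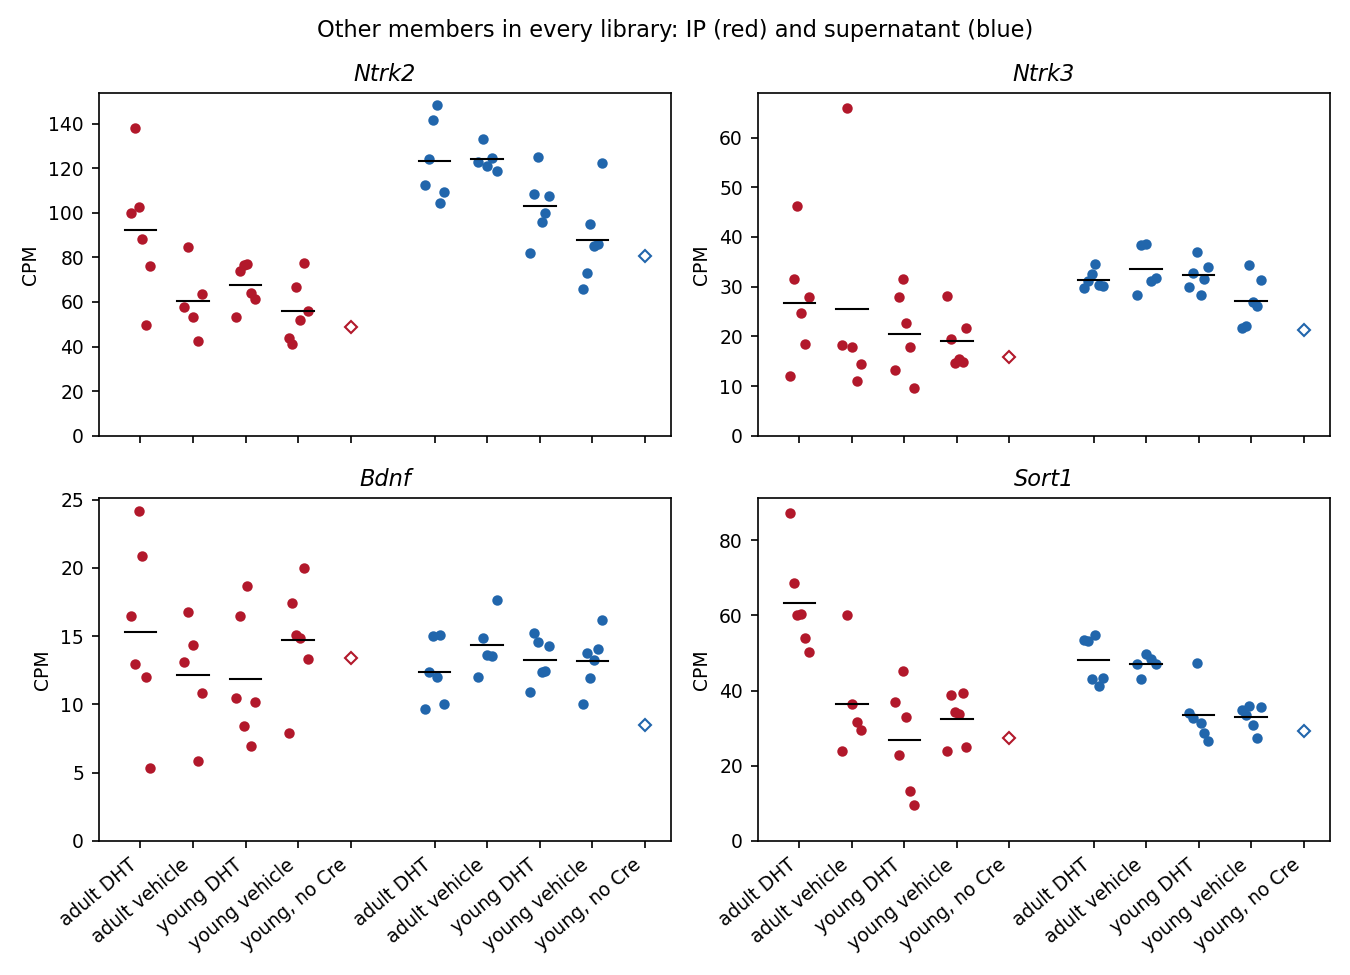
Ntrk2, Ntrk3, Bdnf and Sort1 in every library, in CPM, by group (IP left, supernatant right). Dots are libraries, bars group means and open diamonds the libraries without Cre. Sort1 is highest in the IP of adult DHT mice, at 50.2 to 87.3 CPM, and Ntrk2 lies lower in the IP than in the supernatant.

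Other genes of the pathway, from lists that hold no member, also moved less than Ngfr between the fractions. Over all genes 21.7% were called lower and 24.4% higher in the IP. Whether the lists depart from these shares was not tested. Of 12 adaptors and effectors of p75, 3 were called lower and 4 higher in the IP, with a median log2 fold change of 0.14 against 0.00 over all genes. The lower ones included Arhgdia, the gene of a GDP dissociation inhibitor that p75 binds (-0.31), and Maged1, the p75-binding protein NRAGE (-0.32). The higher ones included Ripk2, a kinase that binds the p75 death domain (0.81), and Ngfrap1, the p75-associated death executor (0.49). Of 31 tested Trk adaptors and effectors 13 were lower and 3 higher, with a median of -0.21. The adaptor gene Sh2b1 (-0.83), the ERK1 gene Mapk3 (-0.58), the phosphatase gene Ptpn11 (-0.65) and the kinase gene Braf (-0.74) led by adjusted p. Of 8 further receptors and co-receptors 1 was lower, the sorting receptor gene Sorl1 (-0.43), and 0 higher. Of 5 tested ligand and processing genes 0 were called in either direction.

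Age was tested within each fraction, on the same libraries in which the members were chosen. In the supernatant of vehicle mice, adult over young, 20.3% of 16286 genes were called, 10.1% as higher and 10.2% as lower. Of the 6 members 2 were called higher, Sort1 and Ntrk2, and 0 lower. The members' median log2 fold change was 0.19, against 0.01 over all genes.

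Sort1 rose with age in the supernatant of vehicle mice. Its 5 adult libraries had 47.0, 43.0, 49.6, 48.5 and 47.1 CPM, against a median of 34.2 CPM (27.3 to 35.9) in 6 young libraries. Every adult library lay above every young one. The means were 47.0 ± 2.53 CPM in adult and 33.0 ± 3.36 CPM in young mice, a log2 difference of 0.48 ± 0.12 (SE; edgeR adjusted p = 0.00537). Sort1 was also higher in the adult supernatant of DHT mice, where 19.9% of genes were called and 9.47% were called higher, and where it was the 1 member called. There its median was 48.3 CPM (41.3 to 54.8) in adult and 31.9 CPM (26.6 to 47.4) in young mice (n = 6 each), and only young replicate 3, at 47.4 CPM, overlapped the adults. The adults were higher by 0.52 ± 0.11 on the log2 scale (edgeR adjusted p = 0.00216). Without the last 10 sample numbers it was 0.34 and no longer called (edgeR adjusted p = 0.0629), with 3 young DHT libraries left.

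The IP showed the Sort1 difference in DHT mice. Sort1 had a median of 60.2 CPM (50.2 to 87.3) in adult DHT IP and 28.003 CPM (9.65 to 45.3) in young DHT IP (n = 6 each). The groups did not overlap. Adults were higher by 1.29 ± 0.30 on the log2 scale (SE; edgeR adjusted p = 0.00859), and by 1.10 to 1.49 when each library was left out, called each time. Of 15890 genes 7.12% were called in this contrast, 3.8% as higher and 3.32% as lower, and Sort1 was the 1 member called of 5 tested. Without the last 10 sample numbers, which hold the 3 young DHT libraries at 33.1, 13.2 and 9.65 CPM, the log2 fold change was 0.93 and no longer called (edgeR adjusted p = 0.137). In the same libraries 4 of 6 oligodendrocyte genes fell and 0 rose with age, their sum being 1226 to 3989 CPM in adult and 3534 to 5420 CPM in young DHT IP. Gnrh1 ranged from 664 to 13176 CPM in adult and from 2816 to 3942 CPM in young DHT IP. Of 6 cholinergic markers Chat rose, averaging 82.0 ± 27.0 CPM in adult and 37.0 ± 6.54 CPM in young DHT IP (edgeR log2 difference 1.18 with adjusted p = 0.0127). Lhx8 fell by 0.79, while the sum over the list was 290.4 to 528 CPM in adult and 341 to 481 CPM in young DHT IP. Of 4 pan-neuronal genes 1 rose, the synaptotagmin gene Syt1 (0.94, edgeR adjusted p = 0.00757), and their sum was 3559 to 4619 CPM in adult and 3018 to 3621 CPM in young DHT IP. The astrocyte gene Gfap fell by 1.24. The part of these in the Sort1 value was not tested.

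In the IP of vehicle mice Sort1 stood at 23.9, 60.2, 36.4, 31.7 and 29.4 CPM in adults against a median of 34.0 CPM (24.0 to 39.3) in the young, and the groups overlapped. Their log2 difference was 0.22 ± 0.31 (edgeR adjusted p = 0.819), and -0.06 without adult replicate 2. Here 3.83% of genes were called, 2.04% as higher and 1.79% as lower, and 0 of 5 members. The age difference of Sort1 in the IP was larger by 1.07 ± 0.43 in DHT than in vehicle mice, which did not pass the test over all genes (edgeR adjusted p = 0.835). Against the supernatant of DHT mice, the IP difference was larger by 0.77 ± 0.31, again not called (edgeR adjusted p = 0.265). The IP and the supernatant, and the treatments, were therefore not shown to differ in how Sort1 varied with age.

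Ntrk2 rose with age in the supernatant of vehicle mice as well. The 5 adult libraries had 123, 133, 121, 125 and 119 CPM, against a median of 85.6 CPM (65.7 to 122) in 6 young libraries. Young replicate 6, at 122 CPM, was the young library that reached the adult range. On the log2 scale adults were higher by 0.47 ± 0.13 (SE; edgeR adjusted p = 0.00896). In DHT supernatants Ntrk2 averaged 123 ± 18.1 CPM in adult and 103 ± 14.4 CPM in young mice, a log2 difference of 0.25 ± 0.12 (edgeR adjusted p = 0.135). In the IP it was 0.48 ± 0.22 in DHT (edgeR adjusted p = 0.192) and 0.14 ± 0.23 in vehicle mice (edgeR adjusted p = 0.841).

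Glial and neuronal markers were read beside these age differences because TrkB is made by both kinds of cell. In adult against young supernatant 6 of 6 oligodendrocyte genes fell in vehicle mice (median log2 fold change -1.15) and 6 of 6 in DHT mice (-0.85). Their summed level was 2126 to 3378 CPM in adult and 4910 to 6562 CPM in young vehicle mice, and 2060 to 4495 CPM in adult and 4468 to 6755 CPM in young DHT mice. Of 8 astrocyte genes 1 rose in vehicle mice (median 0.26) and 1 fell in DHT mice (median 0.13), and their sum was 419 to 667 CPM in adult and 480 to 628 CPM in young vehicle mice. Of 4 pan-neuronal genes 2 rose and 0 fell with age in each treatment, Syt1 (0.47 in vehicle and 0.33 in DHT mice) and the synaptic gene Snap25 (0.20 and 0.23). Their sum was 3504 to 4156 CPM in adult and 3139 to 3380.4 CPM in young vehicle mice, and 3513 to 4248 CPM in adult and 3203 to 3492 CPM in young DHT mice, without overlap in either. Of 4 oligodendrocyte precursor genes 2 fell in each treatment. In vehicle mice 1 of 5 microglia genes rose and 2 of 6 cholinergic markers fell, with 0 called from either list in DHT mice. Over all genes 10.1% rose and 10.2% fell in vehicle supernatants, and 9.47% and 10.5% in DHT supernatants. The part of these cells in the Ntrk2 and Sort1 values was not tested.

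The remaining members were not called with age. Ntrk3 in the supernatant of vehicle mice had 28.4, 38.4, 38.5, 31.1 and 31.7 CPM in adults and a median of 26.6 CPM (21.8 to 34.3) in the young. The log2 difference was 0.29 ± 0.11, just short of the threshold (edgeR adjusted p = 0.0748). It passed without young replicate 3, young replicate 6 or adult replicate 1 (edgeR adjusted p = 0.0187, 0.0444 and 0.0432), and also in the fit with a replicate block (0.31, edgeR adjusted p = 0.0269). That block tied equal replicate numbers of different groups, which no label pairs. In DHT supernatants the log2 difference of Ntrk3 was -0.04 ± 0.11 (edgeR adjusted p = 0.825). In the IP Ntrk3 was at 0.42 ± 0.39 in DHT mice and 0.48 ± 0.41 in vehicle mice (edgeR adjusted p = 0.637 and 0.641), the second being -0.28 without adult replicate 2, at 66.1 CPM. Bdnf was at 0.09 ± 0.14 in vehicle and -0.11 ± 0.13 in DHT supernatants (edgeR adjusted p = 0.68 and 0.591), and at -0.24 ± 0.37 in vehicle and 0.40 ± 0.35 in DHT IP (edgeR adjusted p = 0.838 and 0.608).

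Ngfr itself was not called with age in either fraction. In the supernatant its means in descending order were 20.7 ± 4.62 CPM in adult DHT, 19.3 ± 4.68 in young DHT, 18.5 ± 4.84 in young vehicle and 16.8 ± 3.17 CPM in adult vehicle mice. Neighbours in this order differed by less than their SD. In the IP the order was 2.11 ± 2.61 CPM in adult vehicle, 1.84 ± 1.57 in adult DHT, 1.68 ± 1.08 in young DHT and 1.104 ± 0.441 CPM in young vehicle mice, with overlapping ranges throughout. The log2 fold change of adult over young was -0.17 ± 0.19 in vehicle (edgeR adjusted p = 0.594) and 0.09 ± 0.18 in DHT supernatants (edgeR adjusted p = 0.768). In the IP it was 1.02 ± 0.83 in vehicle (edgeR adjusted p = 0.616) and 0.16 ± 0.79 in DHT mice (edgeR adjusted p = 0.952). The first of these rested on adult vehicle replicate 2, the IP library at 6.76 CPM, and was -0.17 without it. The fit of both fractions, which asks whether the Ngfr gap narrowed with age in vehicle mice, gave a log2 difference of 1.21 ± 0.65 (edgeR adjusted p = 0.486), and -0.00118 without that library. For that difference of age effects 1.04% of genes were called in vehicle and 0.882% in DHT mice (0.732% as lower), with 0 of 6 members in each.

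**Figure D5:**
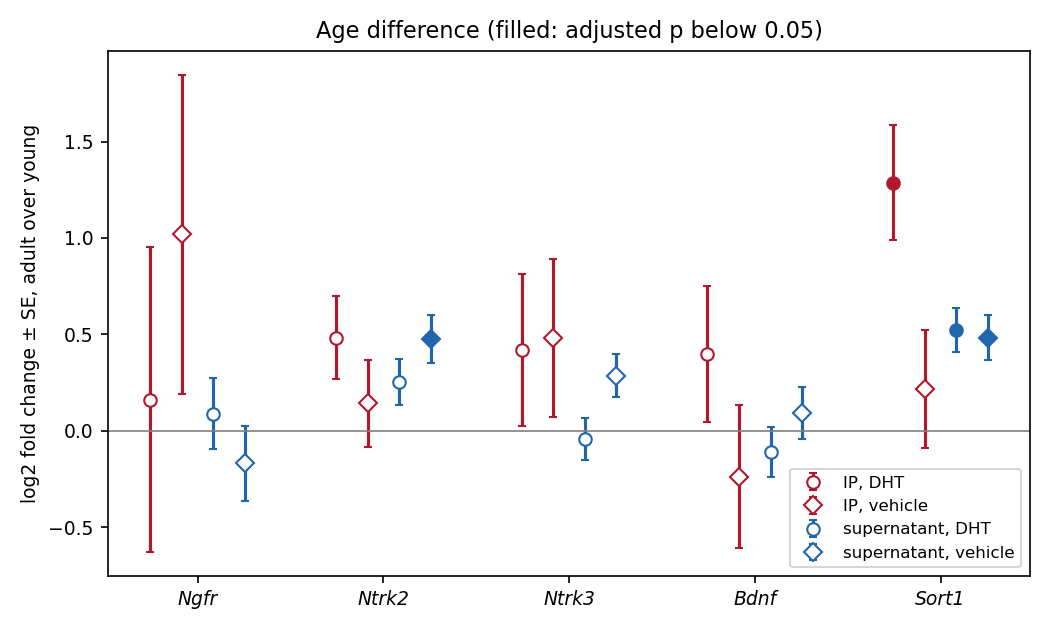
Log2 fold change of adult over young for 5 members, with SE, in the IP and the supernatant of DHT and vehicle mice. Filled symbols have an adjusted p below 0.05 in edgeR. Sort1 is filled in both supernatants (0.52 in DHT, 0.48 in vehicle) and in the DHT IP (1.29), and Ntrk2 in the vehicle supernatant (0.47).

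Sortilin belongs to a family of receptors with a VPS10 domain, whose other genes were on the fixed receptor list but were set apart as a family after their values had been seen. In the supernatant of vehicle mice 4 of the 8 receptors on that list rose with age and 0 fell, and they were Sorcs2 (log2 fold change 0.69 ± 0.18, edgeR adjusted p = 0.0068), Sorl1 (0.60 ± 0.15, 0.00693), Sorcs3 (0.37 ± 0.11, 0.0154) and Sorcs1 (0.41 ± 0.14, 0.0395). In DHT supernatants 1 of 8 rose, Sorl1, by 0.52 ± 0.15 (edgeR adjusted p = 0.0131), while Sorcs2 (0.38), Sorcs3 (0.21) and Sorcs1 (0.01) were not called. Over all genes 10.1% were called higher in vehicle and 9.47% in DHT supernatants. The median of the 8 receptors was 0.39 in vehicle and 0.08 in DHT supernatants, against 0.01 over all genes in both. In the IP 0 of 8 were called with age in either treatment, against 3.83% of all genes in vehicle and 7.12% in DHT mice. Their median there was 0.43 in vehicle and 0.55 in DHT mice, against 0.01 and 0.03 over all genes. The absence of calls in the IP is therefore no sign that these receptors were unchanged there. Whether the age difference of the Sorcs genes depends on treatment is covered by the test over all genes, in which 0 of 16286 genes passed by edgeR, with 888 at an unadjusted p below 0.05 and 0 by DESeq2.

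Downstream of the receptors, changes with age went both ways, except that the p75 adaptors called in vehicle supernatants all fell. Of all genes 10.1% were called higher and 10.2% lower in vehicle supernatants, and 9.47% and 10.5% in DHT supernatants. Whether the lists depart from these shares was not tested. In the supernatant of vehicle mice 0 of 12 p75 adaptors rose and 4 fell, led by Arhgdia (-0.42 ± 0.06, edgeR adjusted p = 1.27e-05), the small GTPase gene Rhoa (-0.27), the JNK1 gene Mapk8 (-0.69) and Ngfrap1 (-0.26). In DHT supernatants 2 rose and 4 fell, with Arhgdia at -0.31, Rhoa at -0.25 and Ngfrap1 at -0.34, and Irak1, a kinase of the p75 and interleukin routes, at 0.22. Of 31 Trk effectors 3 rose and 5 fell in vehicle and 6 rose and 3 fell in DHT supernatants. Nras fell by 0.74 in vehicle and by 0.77 in DHT supernatants, and the MEK2 gene Map2k2 fell by 0.34 in vehicle and by 0.26 in DHT supernatants. Kidins220, a scaffold of Trk and p75 receptors, rose by 0.59 in vehicle and 0.67 in DHT supernatants.

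In the IP fewer genes were called, 3.83% of all genes in vehicle and 7.12% in DHT mice. Whether the lists depart from these shares was not tested. Kidins220 rose with age in vehicle (1.02 ± 0.21, edgeR adjusted p = 0.00706) and in DHT mice (0.96 ± 0.20, edgeR adjusted p = 0.00493). Maged1 rose as well, by 0.78 ± 0.17 in vehicle (edgeR adjusted p = 0.0113) and 0.89 ± 0.17 in DHT mice (edgeR adjusted p = 0.00182). Map2k2 fell by 0.48 in vehicle and by 0.64 in DHT mice. In DHT mice Ndn, the p75-binding protein necdin, rose by 0.55 and the MEK1 gene Map2k1 by 0.54, and Akt1 fell by 0.48. These made 1 of 12 p75 adaptors and 2 of 31 Trk effectors in vehicle, and 2 of 12 and 4 of 31 in DHT mice. Of these genes, Maged1 also differed between the fractions in its age effect in DHT mice (log2 difference 0.74 ± 0.19, edgeR adjusted p = 0.0399), as did Akt1 (-0.47 ± 0.12, edgeR adjusted p = 0.0475).

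Prenatal DHT, the treatment the study set out to examine, left no member past the threshold. In young IP 0 of 15890 genes (0%) were called by edgeR, with 239 at an unadjusted p below 0.05 and 11 called by DESeq2. In adult IP 1 gene (0.00629%) was called, no member, with 1318 at an unadjusted p below 0.05 and 208 called by DESeq2. In the supernatant 0 genes (0%) were called at either age, with 747 in young and 338 in adult mice at an unadjusted p below 0.05 and 1 and 0 called by DESeq2.

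In adult IP Ntrk2 had a median of 94.0 CPM (49.5 to 138) in 6 DHT libraries and 57.7, 84.6, 53.1, 42.6 and 63.5 CPM in the 5 vehicle libraries. The groups overlapped. The log2 fold change of DHT over vehicle was 0.60 ± 0.23 (SE; edgeR unadjusted p = 0.0138, adjusted p = 0.431). Sort1 in adult IP had the values given above, with the DHT libraries at 50.2 to 87.3 CPM and 1 of 5 vehicle libraries, replicate 2 at 60.2 CPM, inside that range. Its log2 fold change was 0.78 ± 0.31 (edgeR unadjusted p = 0.0188, adjusted p = 0.455). Ngfr was at -0.25 ± 0.83 in adult IP and 0.61 ± 0.79 in young IP (edgeR adjusted p = 0.97 and 1.00), and at 0.30 ± 0.19 in adult and 0.04 ± 0.18 in young supernatants (edgeR adjusted p = 1.00 and 0.999). The Ngfr value in adult IP was 0.94 without vehicle replicate 2. Of the pathway lists, 0 genes were called for DHT in either fraction at either age.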

How the data were processed

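The authors deposited a gene table of estimated counts, with 23284 genes and 48 libraries. Of its values, 98.49% were exactly whole with no tolerance, and all were rounded to whole numbers for the tests. The submitters' processing notes list TopHat2 2.0.13, HTSeq 0.6.1 and DESeq2 1.14.1 among the tools and mm10 as the genome. The tool and the annotation behind the counts are not given in the sources used here. Per the labels' protocols, RNA was extracted with the RNeasy Plus Micro kit and poly(A) RNA was made into libraries with SMARTer v4 Ultra Low, which does not mark the strand. Reads of overlapping genes on opposite strands therefore cannot be told apart.

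Groups and replicate numbers came from the labels, which leave unsaid if animals were pooled, and p-values therefore reflect the spread among these libraries, which may be technical. Levels are CPM, counts relative to the library total. Counts were tested in R 4.3.3 with edgeR 4.0.16 (limma 3.58.1 beneath it), TMM scaling, filterByExpr (minimum count 10, minimum total 15), robust quasi-likelihood F tests and Benjamini-Hochberg adjustment over all genes tested, calling genes at an adjusted p below 0.05. The IP and the supernatant were fitted apart for age and treatment (23 libraries each) and together, 46 libraries, for fraction. The libraries without Cre, 1 per fraction, entered no test. Correlations used 100000 permutations of log2(CPM + 0.5), centred on the group means, over 20 relations. Intervals are 95% exact Poisson or binomial intervals and cover counting error only. The tests were also run on simulated counts with known changes. The outcome is not given here, so the power of the tests in the IP is not stated. Pathway genes were named by smallest adjusted p, at most 4 a list and contrast. The members and the gene lists were chosen with earlier results of these data known, and an item of these lists is not reported here. Alternatives were DESeq2 1.42.0, RLE size factors, no filter on low counts, a replicate block, fits with just the groups compared, and leaving out each library or the last 10 sample numbers. Gene positions and exon lengths are from GENCODE M21 and promoters from RefSeq.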

Additional observations from a re-analysis of the deposited data

Results flagged for a closer look

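Over the members together, 47 sets of values, each of 1 member in 1 group of libraries, were checked for a library standing apart. Such a library has a gap to its nearest neighbour that is large against the range of its group. Of the sets, 6 stood out, where chance gives about 1 in 20 for normally distributed values. That rate does not hold for the Ntf3 sets below, in which 3 to 5 of 6 libraries had 0 reads. In the adult vehicle IP, replicate 2 had 6.76 CPM of Ngfr, against 0.655 to 1.28 CPM in the other 4 libraries. The same library had 66.1 CPM of Ntrk3, against 11.1 to 18.3 CPM. In the supernatant of young DHT mice, replicate 3 had 47.4 CPM of Sort1, against 26.6 to 34.1 CPM. Ntf3 stood out in the IP of young DHT replicate 5 (2.05 CPM, the others at 0), adult DHT replicate 4 (1.43 CPM, the others at 0) and young vehicle replicate 6 (1.56 CPM, the others at 0 to 0.565 CPM).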

How the results depend on the processing

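The fraction differences of Ngfr, Ntrk2 and Ntrk3 kept their direction under every alternative run, Ngfr from -3.80 to -3.43 when each library was left out. The pair without Cre gave the same direction with TMM scaling. Calls for age or treatment in the IP depended on the tool. DESeq2 called 1238 and 1816 genes for age in vehicle and DHT IP (edgeR 608 and 1131), 513 and 416 for fraction by age (173 and 147), 11 and 208 for DHT in young and adult IP (0 and 1), 83 for age by DHT in the IP (0) and 1 for DHT in young supernatant (0). Without the last 10 sample numbers, age gave 372 and 277 genes in vehicle and DHT IP and 1121 in DHT supernatants (3248), DHT in young supernatant 39 and age by DHT in the supernatant 4. Sort1 then turned to 0.0829 for DHT in young IP and -0.12 for age by DHT in the supernatant, and Ngfr to -0.15 for age in DHT supernatants. Fits of the compared groups alone called 0 for DHT in adult IP.

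Same-numbered IP and supernatant deviated together by over 0.1 in 19 of 23 pairs (median correlation 0.403), and same-numbered libraries of different groups in 16 of 33 pairs in the IP and 19 of 33 in the supernatant, with medians of 0.0903 and 0.21. The labels tie no IP to a supernatant and not every pair passed, so the fits reported have no block, although the numbers may pair the fractions. In the fit of both fractions the block tied same-numbered IP and supernatant of a condition. Within a fraction it tied equal numbers of different groups, which no label pairs. With the replicate block, 105 genes were called for fraction by age in vehicle mice, Ntrk3 was called for age in vehicle supernatants (0.31, edgeR adjusted p = 0.0269), and values near 0 turned: Ngfr to -0.13 for fraction by age in DHT mice, -0.0367 for age in DHT IP and 0.0904 for DHT in adult IP, and Ntrk3 to -0.00964 for DHT in young IP. The block changed no call of another member.

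Leaving out each library in turn gave 87 to 250 and 88 to 269 genes for fraction by age in vehicle and DHT mice, 313 to 553 (lowest without young replicate 1) and 650 to 1355 (lowest without young replicate 6) for age in vehicle and DHT IP, 0 to 7 for DHT in adult IP, and 0 to 1 for age by DHT in either fraction and for DHT in adult supernatant. Ngfr ran from -0.00118 to 1.43 and from -0.42 to 0.45 for fraction by age in vehicle and DHT mice, from -0.17 to 1.25 and from -0.35 to 0.53 for age in vehicle and DHT IP, from -0.70 to 0.94 for DHT in adult IP, from -1.34 to 0.33 for age by DHT in the IP, from -0.0107 to 0.19 for age in DHT supernatants and from -0.0501 to 0.18 for DHT in young supernatant. In vehicle IP age gave -0.0259 to 0.27 for Ntrk2, -0.28 to 0.67 for Ntrk3 and -0.0633 to 0.35 for Sort1, each lowest without adult replicate 2. Ntrk3 ran from -0.0614 to 0.24 and -0.20 to 0.80 for DHT in young and adult IP and from 0.22 to 0.37 and -0.0864 to 0.0081 for age in vehicle and DHT supernatants, and Sort1 from -0.0168 to 0.17 for age by DHT in the supernatant. The causes were not tested. Ntf3 had no more than 93 reads in any library.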
